A study of Mus musculus with 6 samples.

Results

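The genes described here are 33 genes that serve cell growth: Myc and its partners, enzymes of polyamine and nucleotide synthesis, and factors that make ribosomes. They were listed by name, and a gene was measured where a probe set of the array carries its symbol and no other. This held for 31 of the 33, among 19936 genes tested in all. Npm3 and Sms had no such probe set and were not analysed here. For Sms, 2 probe sets shared its name with a second gene model, and 3 further probe sets did so for Npm1.

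The cells were mouse pre-B cells that carry BCR-ABL1, a fusion kinase found in Philadelphia chromosome-positive leukaemia, and they were compared with and without added Ikaros, the zinc finger factor encoded by IKZF1. All cells were wild-type in genotype and came from C57Bl6 mice aged 4 weeks. One group of 3 arrays received pMIG, an empty retroviral vector that marks cells with green fluorescent protein, and the other group of 3 received pMIG-IKZF1. RNA was taken from sorted fluorescent cells 3 days after transduction. The arrays are called empty vector 1 to 3 and IKZF1 1 to 3. Both groups carry BCR-ABL1, so that neither shows untransformed cells. The labels name neither the species of the insert nor whether replicates are separate cultures, so that p-values rest on a spread between arrays that may be technical.

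Myc is a transcription factor that binds DNA with its partner Max, often at the letters CACGTG, called an E-box. Its targets include genes for ornithine decarboxylase, for nucleotide synthesis and for nearly every step of ribosome production in the nucleolus. There RNA polymerase I transcribes ribosomal RNA, small nucleolar ribonucleoproteins (snoRNPs) modify it, and assembly factors fold it with ribosomal proteins into the small and the large subunit. Ikaros is known to lower Myc expression in mouse pre-B cells.

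Some promoter windows are shown, because 2 of them hold the E-box and because Ncl and Odc1 had the lowest log2 differences among members with a window. RefSeq windows of GRCm38.p6 run from 250 bases before a gene's start to 50 after it, and were held for 26 of the 33 members, in 29 windows. An E-box stood in the window of 8 of the 26 (30.8%), against 8.09% of all 27025 genes in the table. The share among genes expressed at a level like that of the members is not given here. The 8 were Max, Mnt, Mybbp1a, Nop2, Paics, Pes1, Sms and Utp20. GGGAA, core letters of the Ikaros motif, stood on either strand in 16 of the 26 (61.5%), against 65.5% of all genes. A match describes these letters only. Each sequence is read 5′ to 3′ on the strand of its gene, with the E-box in capitals. Paics (chr5:76951052-76951351, plus strand) and Ppat (chr5:76951529-76951828, minus strand) are neighbours on opposite strands, and both serve purine synthesis. Their start sites lie 276 bases apart. That of Ppat has the higher coordinate, so that from these starts both genes are read across the bases between them. Beyond those bases they run away from each other. The other windows are those of Pes1 (chr11:3963725-3964024, plus strand), Ncl (chr1:86359406-86359705, minus strand) and Odc1 (chr12:17544623-17544922, plus strand).
Paics: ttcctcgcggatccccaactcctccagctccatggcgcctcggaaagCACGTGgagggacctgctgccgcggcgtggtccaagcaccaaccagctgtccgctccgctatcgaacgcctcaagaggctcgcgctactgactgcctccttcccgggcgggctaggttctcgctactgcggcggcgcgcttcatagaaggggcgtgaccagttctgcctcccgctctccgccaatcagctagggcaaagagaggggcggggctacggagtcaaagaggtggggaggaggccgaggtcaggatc
Ppat: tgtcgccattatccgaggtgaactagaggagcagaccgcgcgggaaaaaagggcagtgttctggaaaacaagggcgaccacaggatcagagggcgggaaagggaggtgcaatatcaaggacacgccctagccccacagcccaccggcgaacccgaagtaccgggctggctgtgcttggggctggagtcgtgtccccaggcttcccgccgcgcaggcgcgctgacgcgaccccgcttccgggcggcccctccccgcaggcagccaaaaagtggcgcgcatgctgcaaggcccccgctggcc
Pes1: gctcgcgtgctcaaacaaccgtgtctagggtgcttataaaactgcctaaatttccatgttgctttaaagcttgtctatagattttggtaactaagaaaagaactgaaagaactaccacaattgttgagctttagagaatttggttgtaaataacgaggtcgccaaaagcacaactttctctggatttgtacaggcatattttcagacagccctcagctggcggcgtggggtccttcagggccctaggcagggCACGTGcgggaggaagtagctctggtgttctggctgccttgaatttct
Ncl: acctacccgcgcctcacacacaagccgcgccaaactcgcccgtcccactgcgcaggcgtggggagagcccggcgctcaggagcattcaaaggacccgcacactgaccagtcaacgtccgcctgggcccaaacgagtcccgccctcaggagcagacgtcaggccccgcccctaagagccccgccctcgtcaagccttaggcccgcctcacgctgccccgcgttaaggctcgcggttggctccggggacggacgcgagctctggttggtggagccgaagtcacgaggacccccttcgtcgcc
Odc1: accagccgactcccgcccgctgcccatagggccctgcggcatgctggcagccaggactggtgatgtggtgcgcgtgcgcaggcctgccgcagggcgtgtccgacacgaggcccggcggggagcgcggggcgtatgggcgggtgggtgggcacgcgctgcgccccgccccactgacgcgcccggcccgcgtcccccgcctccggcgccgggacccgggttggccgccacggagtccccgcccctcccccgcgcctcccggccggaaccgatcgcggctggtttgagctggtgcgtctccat
The E-box of Paics begins 203 bases before its start site, and that of Pes1 lies just after its start. No window of Ppat, Ncl or Odc1 holds these letters, and sequence outside the windows was not searched. Of the 7 measured members with an E-box, 5 had a log2 difference above 0 (median 0.04), and of the 17 without one 6 did (median -0.06). These counts moved with the processing, and the split was not tested. With arrays centred on their medians they were 1 of 7 and 0 of 17 (medians -0.06 and -0.16), and without empty vector 2 they were 3 and 1. Without IKZF1 2 they were 3 and 6 (medians -0.018 and -0.023). After quantile normalization or cyclic loess they were 5 of 7 and 7 of 17. The window of Myc and that of Npm1 were not analysed here.

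Levels are log2(intensity + 1), so that a difference of 1 is a doubling, and all differences are IKZF1 minus empty vector. Ikzf1 read 11.85, 11.78 and 11.98 in empty vector 1 to 3 and 13.09, 13.14 and 13.06 in IKZF1 1 to 3 (difference 1.23 ± 0.07 SE, limma adjusted p = 0.0021). Median intensities of the 6 arrays lay between 100.2 and 107. Empty vector 3 stood apart on the first principal component, at -41.7 where the other 5 lay between -2.73 and 24.5. Of 12 pre-B cell markers 11 were measured, and all 11 lay above 6.24, the level below which 95% of olfactory and vomeronasal receptor genes lay. By the mean over all 6 arrays, myeloid, NK and erythroid markers above that level numbered 0 of 8, 0 of 3 and 0 of 2, and 1 of 5 T cell and 3 of 6 stromal markers lay above it. The myeloid marker Lyz2 had a mean of 6.42 on the empty vector arrays, above that level, and 5.95 on the IKZF1 arrays. The summed intensity of T cell markers was 309 to 321 on the empty vector and 343 to 438 on the IKZF1 arrays, and that of stromal markers 528 to 609 and 605 to 752. Their part in the results below was not tested. All 31 members lay above 6.24.

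By the brightest probe set of each gene, 0 of the 31 members had an adjusted p under 0.05 in limma, the threshold used, where 2.25% of all genes did. At an unadjusted p under 0.05 the members counted 5 lower and 0 higher, against 8.84% and 9.58% of all genes and 16.1% and 11.7% of the 9968 genes brighter than the median gene. The 5 were Npm1, Odc1, Myc, Rrs1 and Ncl. Their log2 differences ran from -0.59 to -0.31, which is 66.6% to 80.9% of the empty vector level. Over all members 17 differences were below 0 and 14 above, with a median of -0.04 beside 0.03 for all genes. All 31 are among those brighter genes, whose median was -0.03 with 55.4% below 0, close to the 54.8% of the members. The groups did not overlap for 4 members that were lower and 2 that were higher, against 11.3% and 15.2% of all genes, and 19.2% and 15.0% of the brighter genes. Arrays of the same number tend to deviate together. With replicate number as a block 2 members were lower, Npm1 and Myc, and 0 higher. The shares were 3.85% and 3.36% of all genes, and 7.12% and 5.43% of the brighter genes. Without empty vector 3, Myc and Odc1 were lower, against 2.94% of all genes. For that fit the share of the brighter genes is not given here.

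**Figure D1:**
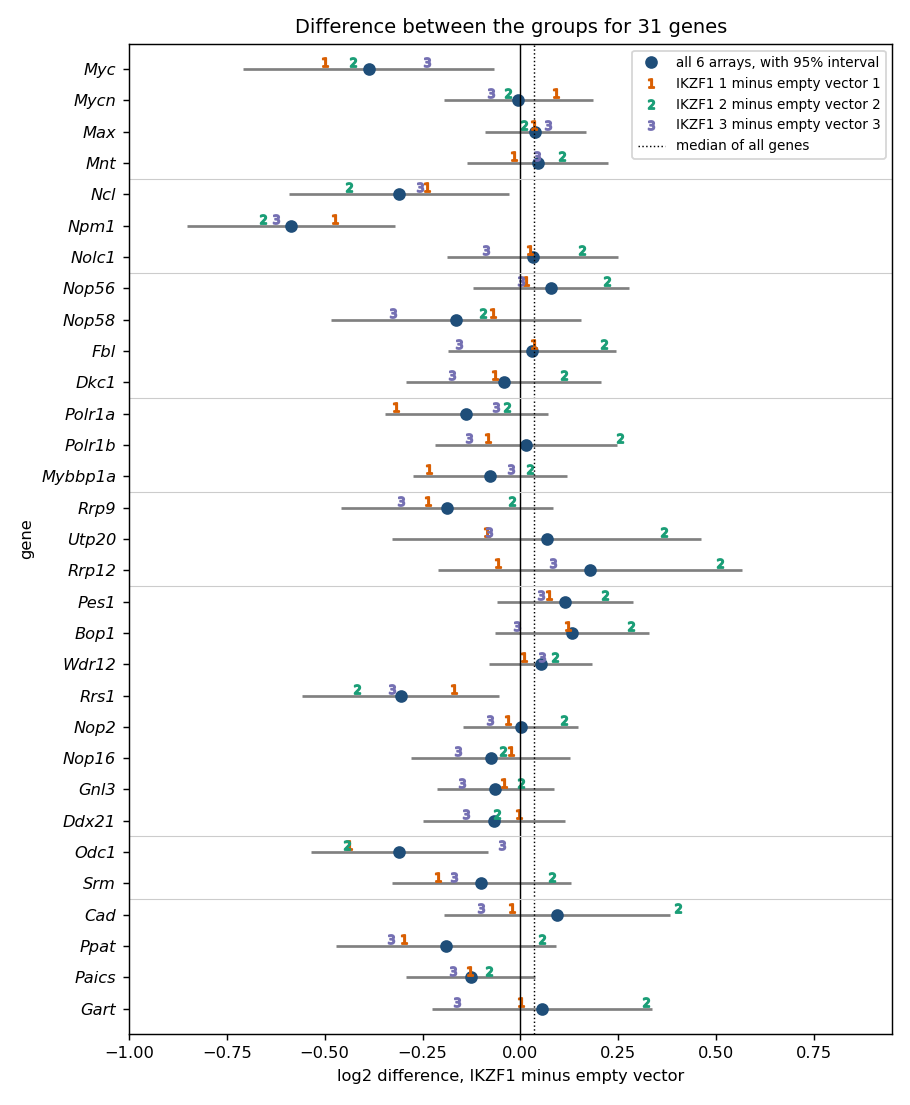
Log2 difference of each of 31 genes, IKZF1 minus empty vector (x axis), by gene (y axis, grouped by role). Dots with bars are the estimate from all 6 arrays with its 95% confidence interval, digits are the differences of arrays with the same number, and the dotted line is the median of all genes. Npm1 at -0.59 and Myc at -0.39 lie farthest to the left, and most other intervals span 0.

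Of the 4 Myc network factors, Myc had the lowest difference, though its distance from the others was not tested. Myc transcripts read 12.98, 13.03 and 12.59 in empty vector 1 to 3 and 12.48, 12.60 and 12.35 in IKZF1 1 to 3. Empty vector 3 was the low array of its group and lay just under IKZF1 2, so the groups overlapped. The difference was -0.39 ± 0.13 (SE, 3 arrays per group), which is 76.4% of the empty vector level, with an adjusted p of 0.20. Within the numbers 1, 2 and 3 it was -0.50, -0.43 and -0.24, below 0 each time. With the replicate block the difference passed (adjusted p = 0.041), as it did without empty vector 3 (-0.53, adjusted p = 0.031), and over all alternatives its adjusted p ran from 0.029 to 0.51. In bulk RNA, a lower share of Myc-expressing cells and less Myc RNA per cell cannot be told apart.

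Mycn, the paralogue used in early and neural progenitors, had a difference of -0.01 (95% interval -0.20 to 0.18). It read 11.25, 11.27 and 11.46 in empty vector 1 to 3 and 11.34, 11.24 and 11.38 in IKZF1 1 to 3, within the same range in both groups. Max, the obligate partner of Myc, had 0.04 (-0.09 to 0.17), and Mnt, a Max-binding repressor that competes with Myc, had 0.04 (-0.14 to 0.22). These intervals leave room for differences of up to about 0.2 either way. The difference of Max and that of Mnt turned below 0 once arrays were centred on their medians, at -0.06 and -0.05.

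Of 9 other genes of the MYC, MAX and MLX network, 0 passed in limma, and 6 had a difference above 0 (median 0.10). Mxd4 and Mxd1 encode Max partners that repress E-box genes. Mxd4 read 10.49, 10.87 and 10.16 in empty vector 1 to 3 and 11.06, 11.10 and 10.87 in IKZF1 1 to 3. Its 3 IKZF1 values lay above the others, the lowest of them barely so. The difference was 0.50 ± 0.18 (SE, adjusted p = 0.21, and 0.049 with the replicate block). Mxd1 had 0.38 ± 0.15 (SE, adjusted p = 0.26), and its groups overlapped.

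Npm1, which encodes the nucleolar chaperone nucleophosmin, had the smallest p of the members. It read 12.13, 12.07 and 12.34 in empty vector 1 to 3 and 11.66, 11.41 and 11.72 in IKZF1 1 to 3. Every IKZF1 array lay below every empty vector array. The difference was -0.59 ± 0.11 (SE), or 66.6% of the empty vector level, with an adjusted p of 0.056, just outside the threshold. It was -0.47, -0.66 and -0.62 within numbers 1 to 3, and with the block it passed (adjusted p = 0.014). It passed as well among brighter genes, with an intensity trend in the prior, after cyclic loess and with array weights, and its adjusted p ran from 0.014 to 0.21 over all alternatives. An exact 2-sided permutation test of its 6 values gave p = 0.1, the lowest value possible with 3 against 3, so that single-gene permutation tests cannot pass here. Whether the probe set of Npm1 also reads the gene model that shares its name elsewhere on the array was not tested.

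Ncl, the gene of nucleolin, which binds nascent ribosomal RNA, read 12.81, 12.69 and 12.90 in empty vector 1 to 3 and 12.57, 12.26 and 12.65 in IKZF1 1 to 3. The groups did not overlap, though IKZF1 3 came within a small step of empty vector 2, and IKZF1 2 was the lowest array. The difference was -0.31 ± 0.12 (SE, adjusted p = 0.23, and 0.059 with the replicate block). Nolc1, which encodes a phosphoprotein that chaperones snoRNPs, had 0.03 (95% interval -0.19 to 0.25). Its 3 IKZF1 arrays lay inside the range of the empty vector arrays.

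**Figure D2:**
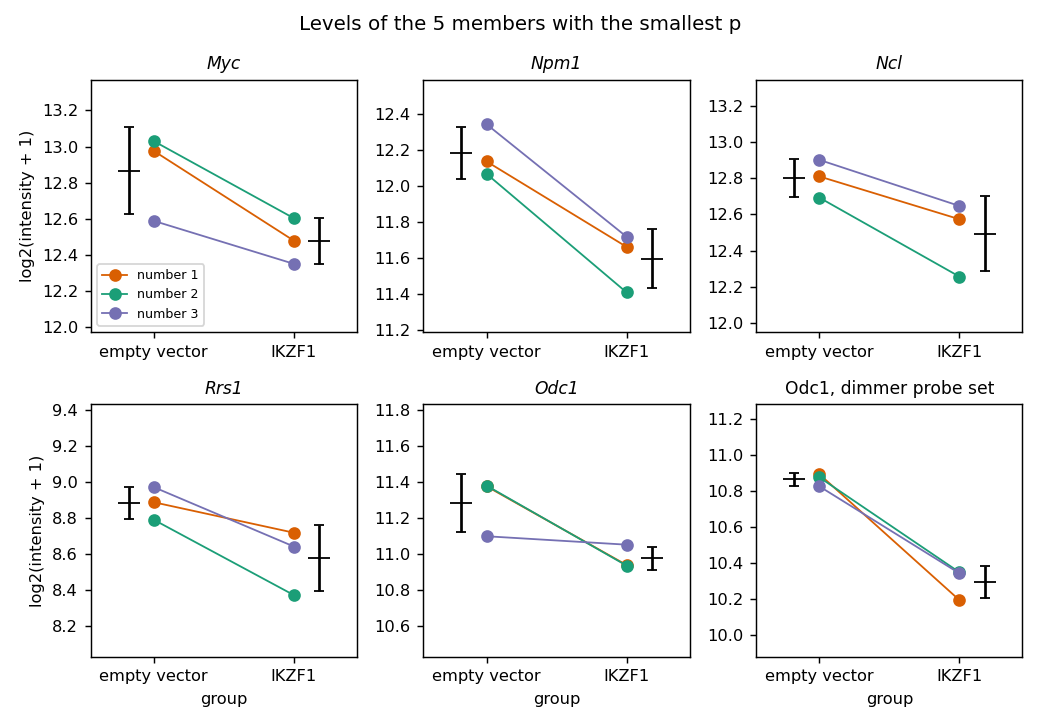
Levels, log2(intensity + 1), of Myc, Npm1, Ncl, Rrs1 and Odc1 and of the dimmer probe set of Odc1 (y axis, the same span in each panel) in the empty vector and IKZF1 groups (x axis). Coloured lines join arrays of the same number, and black bars are the mean and SD of 3 arrays. Each line slopes down to the right, from 12.34 to 11.72 for number 3 of Npm1, and number 1 of Odc1 lies under number 2.

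Odc1 encodes ornithine decarboxylase, the rate-limiting enzyme of polyamine synthesis, and had 2 probe sets, both lower in the IKZF1 group. The brighter one read 11.38, 11.38 and 11.10 in empty vector 1 to 3 and 10.94, 10.94 and 11.05 in IKZF1 1 to 3. Its groups did not overlap, but empty vector 3 lay close to IKZF1 3. The difference was -0.31 ± 0.09 (SE, adjusted p = 0.16), and without empty vector 3 it was -0.40 (adjusted p = 0.033; 0.033 to 0.46 over all alternatives). The dimmer probe set read 10.89, 10.88 and 10.83 in empty vector 1 to 3 and 10.19, 10.35 and 10.34 in IKZF1 1 to 3. Both groups were tight and lay far apart. When all 21789 probe sets with 1 symbol were fitted, this probe set fell by 0.57 ± 0.07 (SE) and passed (limma adjusted p = 0.016), as did 1.08% of all probe sets in that direction. It was singled out after its value was seen. The call held with the replicate block (adjusted p = 0.017) and without empty vector 3 (0.016), and was lost without any of the other 5 arrays (adjusted p from 0.057 to 0.12). The 2 probe sets list the same transcripts in the platform table, and whether either reads a near copy was not tested. The mean of both probe sets passed in the fit over genes (adjusted p = 0.039).

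Srm encodes spermidine synthase, which acts after ornithine decarboxylase. It read 12.90, 12.59 and 12.89 in empty vector 1 to 3 and 12.69, 12.67 and 12.71 in IKZF1 1 to 3, so that empty vector 2 lay below the whole IKZF1 group. The difference was -0.10 (95% interval -0.33 to 0.13, adjusted p = 0.60). Of 10 other genes of polyamine turnover and of hypusine, a modified lysine made from spermidine, 0 passed and 6 were below 0 (median -0.03). Sat1, which encodes the acetylase that starts polyamine breakdown, had 0.24 ± 0.08 (SE, adjusted p = 0.19), with all IKZF1 arrays above the empty vector arrays. Mtap, which salvages the methylthioadenosine released by polyamine synthesis, had -0.17 ± 0.06 (SE, adjusted p = 0.22), with all IKZF1 arrays below.

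Of the snoRNP core genes 0 of 4 passed. Nop56 and Nop58 encode the paired scaffold proteins of box C/D snoRNPs, Fbl the methyltransferase fibrillarin of the same particles, and Dkc1 the pseudouridine synthase dyskerin of box H/ACA snoRNPs. Nop56 read 12.38, 12.17 and 12.44 in empty vector 1 to 3 and 12.40, 12.39 and 12.44 in IKZF1 1 to 3, with a difference of 0.08 (95% interval -0.12 to 0.28). Empty vector 2 was the lowest of all 6 arrays, and the others were nearly level. Nop58 had -0.16 (-0.48 to 0.16) and Dkc1 -0.04 (-0.29 to 0.21). The 2 probe sets of Fbl disagreed: the brighter had 0.03 (-0.18 to 0.24), the dimmer -0.23 ± 0.08 (SE, adjusted p = 0.19 among all probe sets) with all IKZF1 arrays below the empty vector arrays. Of 8 other snoRNP and assembly genes 0 passed and 7 were below 0 (median -0.11). The smallest p belonged to Nufip1, an assembly factor of box C/D snoRNPs (-0.32 ± 0.06 SE, adjusted p = 0.061, and 0.040 with the replicate block), and Ruvbl2, an ATPase that helps it (-0.22 ± 0.06 SE, adjusted p = 0.15). Naf1, an assembly factor of box H/ACA snoRNPs named after its value was seen, had -0.31 ± 0.10 (SE, adjusted p = 0.19, and 0.032 without empty vector 3).

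Polr1a and Polr1b encode the 2 largest subunits of RNA polymerase I, and Mybbp1a a nucleolar protein that takes part in ribosomal RNA transcription and processing. Polr1a had -0.14 (95% interval -0.35 to 0.07), Polr1b 0.01 (-0.22 to 0.25) and Mybbp1a -0.08 (-0.27 to 0.12). Polr1a read 10.14, 9.84 and 9.91 in empty vector 1 to 3 and 9.82, 9.81 and 9.85 in IKZF1 1 to 3, and only empty vector 1 stood well above the rest. Among 13 other genes of RNA polymerase I and its initiation factors, 0 passed and 9 were below 0 (median -0.10). With the replicate block 3 of the 13 were lower, beside 3.85% of all genes and 7.12% of the brighter genes. Polr1c, a subunit shared with RNA polymerase III, came closest. It read 11.05, 11.03 and 10.91 in empty vector 1 to 3 and 10.68, 10.67 and 10.66 in IKZF1 1 to 3, with no overlap. Its difference was -0.33 ± 0.06 (SE, adjusted p = 0.054, 0.041 with the replicate block and 0.031 without empty vector 3). Taf1c, a subunit of the promoter selectivity factor, went the other way (0.34 ± 0.07 SE, adjusted p = 0.075).

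Of the small subunit factors, Rrp9 binds the U3 snoRNA, Utp20 is a scaffold of early precursors and Rrp12 acts in maturation and export. Rrp9 had -0.19 (95% interval -0.46 to 0.08), Utp20 0.07 (-0.33 to 0.46) and Rrp12 0.18 (-0.21 to 0.57). The last 2 intervals were the widest of the group. Utp20 read 9.74, 9.18 and 9.78 in empty vector 1 to 3 and 9.65, 9.54 and 9.70 in IKZF1 1 to 3, and Rrp12 read 8.37, 7.82 and 8.40, then 8.32, 8.33 and 8.49. In both, empty vector 2 lay far below the other 5 arrays. Without it their differences were -0.13 and -0.0096, so that the direction turned. Among 39 other small subunit processome genes 0 passed, 27 were below 0 and 12 above (median -0.10). With the replicate block 3 of the 39 were lower, beside 3.85% of all genes and 7.12% of the brighter genes. Nop14 (-0.31 ± 0.06 SE, adjusted p = 0.062) and the RNA helicase gene Ddx52 (-0.41 ± 0.09 SE, adjusted p = 0.078, and 0.044 without empty vector 3) had the smallest p.

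The large subunit group holds the PeBoW complex of Pes1, Bop1 and Wdr12, which processes the precursor of the large subunit. Their differences were 0.11 (95% interval -0.06 to 0.29), 0.13 (-0.07 to 0.33) and 0.05 (-0.08 to 0.18), with adjusted p of 0.44, 0.43 and 0.64. Pes1 read 10.64, 10.50 and 10.71 in empty vector 1 to 3 and 10.72, 10.72 and 10.77 in IKZF1 1 to 3, so that the groups touched without overlapping. Wdr12 read 10.44, 10.42 and 10.40, then 10.45, 10.51 and 10.45, also without overlap, but its dimmer probe set had -0.011. With arrays centred on their medians Wdr12 was at -0.05.

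Rrs1, which helps load the 5S ribosomal RNA particle, was the lowest of the group. It read 8.89, 8.79 and 8.97 in empty vector 1 to 3 and 8.72, 8.37 and 8.64 in IKZF1 1 to 3, without overlap, and IKZF1 2 was again the low array. The difference was -0.31 ± 0.10 (SE, adjusted p = 0.20, and 0.067 with the replicate block). Nop2, a methyltransferase of the large subunit RNA, had a difference of 0.00 (95% interval -0.15 to 0.15). Nop16, an assembly factor, had -0.08 (-0.28 to 0.13). Gnl3, which encodes the nucleolar GTPase nucleostemin, had -0.06 (-0.21 to 0.09), and the RNA helicase gene Ddx21 -0.07 (-0.25 to 0.11). In the wider set of 40 large subunit assembly genes 0 passed, while 34 were below 0 (median -0.11) and 14 lay without overlap below the empty vector group, 35.0% of the set beside 11.3% of all genes and 19.2% of the brighter genes. With the replicate block 2 of the 40 were lower, beside 3.85% of all genes and 7.12% of the brighter genes. Rsl24d1, a placeholder for a ribosomal protein in precursors, had -0.32 ± 0.07 (SE, adjusted p = 0.088), and without empty vector 3 it passed (adjusted p = 0.032). The helicase gene Ddx24 had 0.26 ± 0.05 (SE, adjusted p = 0.068). Of 9 exosome genes, which trim ribosomal RNA, 0 passed and 8 were below 0 (median -0.08), with Exosc9 at -0.30 and Exosc8 at -0.20 (adjusted p = 0.23 and 0.26).

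Ppat, Gart and Paics encode enzymes of de novo purine synthesis, with Ppat at its first committed step. Cad encodes the enzyme that opens pyrimidine synthesis, so it stands outside the purine pathway. Ppat read 11.10, 10.80 and 11.24 in empty vector 1 to 3 and 10.80, 10.86 and 10.91 in IKZF1 1 to 3. Paics read 13.14, 13.05 and 13.23, then 13.01, 12.97 and 13.06. In both of these neighbouring genes empty vector 3 was the highest array and empty vector 2 the lowest of its group, and the groups overlapped. Their differences were -0.19 (95% interval -0.47 to 0.09) and -0.13 (-0.29 to 0.04), with adjusted p of 0.43 and 0.37. Gart had 0.05 (-0.23 to 0.33) and Cad 0.09 (-0.20 to 0.38). Both turned below 0 without empty vector 2 (-0.07 and -0.04).

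Of 11 other genes of purine synthesis and salvage 0 passed and 9 were below 0 (median -0.11). With the replicate block 1 of the 11 was lower, beside 3.85% of all genes and 7.12% of the brighter genes. Prps1, which makes the ribose donor for both pathways, had -0.21 ± 0.06 (SE, adjusted p = 0.17), and the salvage enzyme gene Hprt -0.27 ± 0.09 (SE, adjusted p = 0.19), both without overlap. Of 6 other pyrimidine genes 0 passed and 5 were below 0 (median -0.18). Dhodh, whose enzyme sits in the mitochondrial membrane, had -0.20 ± 0.06 (SE, adjusted p = 0.18), and the CTP synthase gene Ctps2 had 0.29 ± 0.10 (SE, adjusted p = 0.22). Of 15 other genes that Myc is known to activate 0 passed and 11 were below 0 (median -0.11). C1qbp, a mitochondrial matrix protein gene, had -0.27 ± 0.06 (SE, adjusted p = 0.066) and the chaperonin gene Hspe1 -0.34 ± 0.09 (SE, adjusted p = 0.14). Tfrc, the transferrin receptor gene, had the largest difference of that list and went the other way, and it is named after its value was seen. It was at 0.43 ± 0.13 (SE, adjusted p = 0.15, and 0.018 without empty vector 3), with all IKZF1 arrays above the empty vector arrays.

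In limma 0 of the 160 measured genes of these 10 wider lists passed. At an unadjusted p under 0.05, 36 of the 160 were lower and 7 higher, beside 8.84% and 9.58% of all genes. Of the brighter genes, which hold 154 of the 160, 16.1% were lower and 11.7% higher. The median of the 160 was -0.10, and 119 (74.4%) were below 0, as were 54.8% of the 31 members. Of all genes 40.8% were below 0, a share that moved to 55.4% among brighter genes, 50.7% after quantile normalization, 50.0% after cyclic loess and 67.1% on centred arrays. By the share below 0, the order of the lists depended on the arrays and their scaling. Without empty vector 2, 83.9% of the members and 78.1% of the 160 were below 0, and on centred arrays 90.3% and 85.6%. The median of the 160 was still below that of the members there, at -0.15 beside -0.12 without empty vector 2 and -0.20 beside -0.14 on centred arrays. The groups lay apart with IKZF1 lower for 44 (27.5%) and higher for 10, beside 11.3% and 15.2% of all genes. For the brighter genes these shares were 19.2% and 15.0%. With the replicate block 10 of the 160 were lower and 1, Mxd4, higher. The shares were 3.85% and 3.36% of all genes, and 7.12% and 5.43% of the brighter genes. Beside Polr1c and Nufip1 the 10 were Utp3 (adjusted p = 0.025), Impdh1 (0.031), Utp18 (0.035), Znrd1 (0.039), Taf1b (0.040), Mak16 (0.042), Mrto4 (0.045) and Utp14a (0.046), which are named because that fit called them. Without empty vector 3 the counts were 5 lower and 1 higher, Tfrc, beside 2.94% and 1.81% of all genes. For that fit the shares of the brighter genes are not given here. Relative to all genes the difference in medians was smaller after cyclic loess, where the 160 had a median of -0.07 beside 0.00015 for all genes and 110 were below 0.

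**Figure D3:**
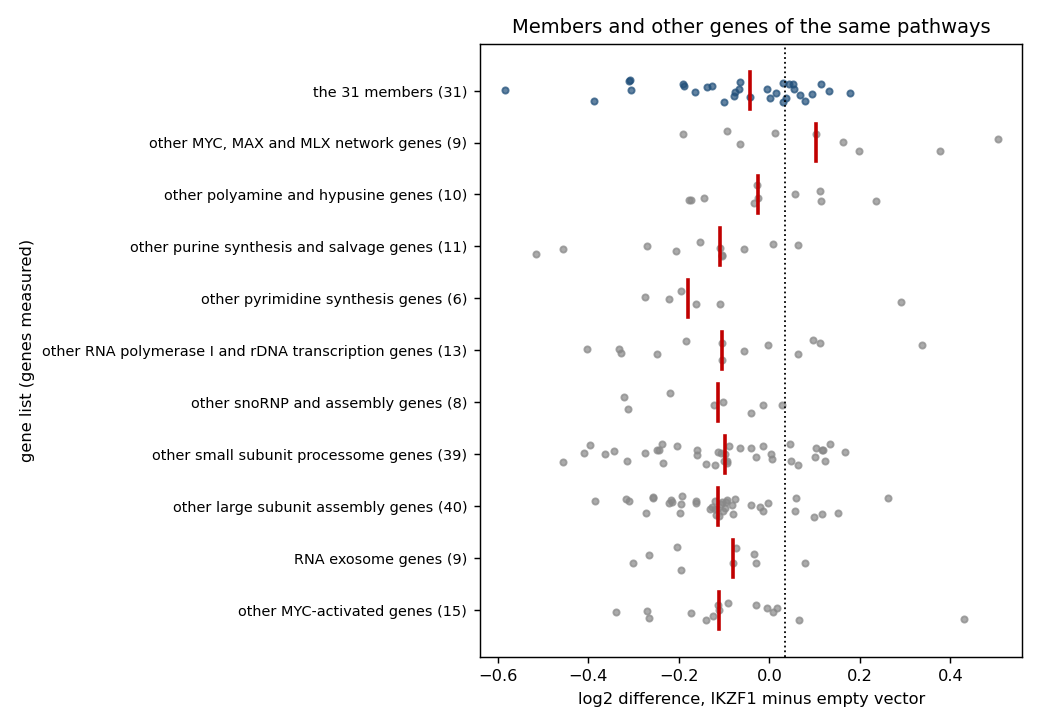
Log2 difference, IKZF1 minus empty vector (x axis), of the 31 members and of the genes of 10 other lists (y axis, number measured in brackets). Each point is a gene, the red bar is the median of its list and the dotted line the median of all genes. Points of most lists lie to the left of the dotted line, and the MYC, MAX and MLX network genes have their median at 0.10, to its right.

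The members varied more among the empty vector arrays than among the IKZF1 arrays. Their median SD was 0.14 among the empty vector arrays and 0.06 among the IKZF1 arrays (n = 3 each), where all genes had 0.09 and 0.10. Empty vector 2 was the lowest array of its group for 25 of 31 members (80.6%), against 36.6% of all genes and 47.6% of the brighter genes. Empty vector 3 was the highest for 20 of the 31. The 160 genes of the wider lists showed the same pattern. Their median SD was 0.11 among the empty vector arrays and 0.06 among the IKZF1 arrays. Empty vector 2 was the lowest of its group for 124 of the 160 (77.5%), and empty vector 3 the highest for 99. Among the 21 members of ribosome production alone, empty vector 2 was lowest for 20. The median member lay 0.09 below its mean over the 6 arrays in empty vector 2, at a deviation of -0.09, and 0.13 above it in empty vector 3. Myc ran the other way, with empty vector 2 its highest array and empty vector 3 the lowest of the group, and so did the brighter probe set of Odc1, by a small margin between empty vector 1 and 2.

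How many members lay below 0 depended on which arrays were used. Without empty vector 2, 26 of 31 members were below 0 and the median was -0.12. Without empty vector 3, 15 were below 0 and the median was 0.010. Within numbers 1, 2 and 3 the median of the members was -0.06, 0.06 and -0.13. The 11 members that were lower in all 3 numbers are 35.5% of the 31, against 20.3% of all genes and 33.4% of the brighter genes. They were Myc, Npm1, Ncl, Rrs1, Odc1, Nop58, Polr1a, Rrp9, Nop16, Ddx21 and Paics. With arrays centred on their medians 28 members were below 0 (median -0.14, beside -0.06 for all genes).

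**Figure D4:**
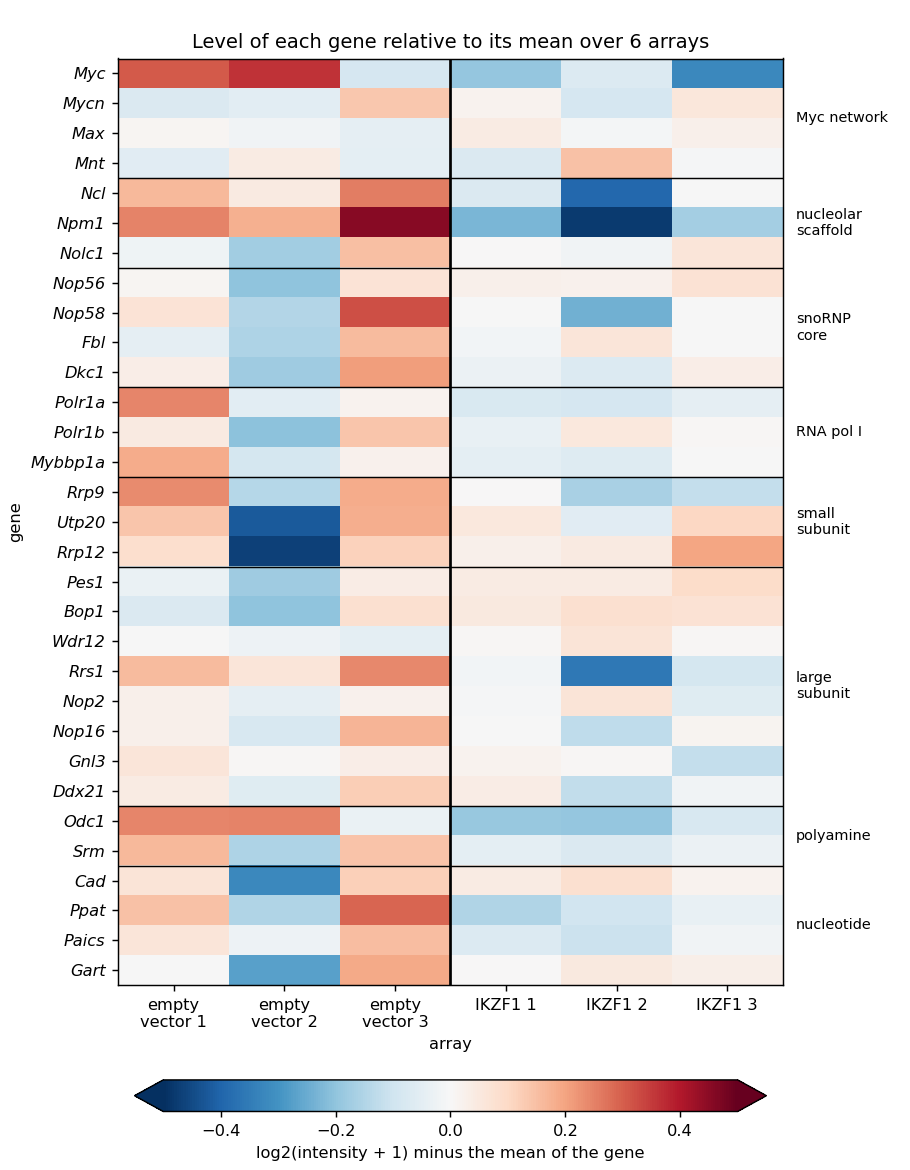
Level of 31 genes (rows, grouped by role) on 6 arrays (columns), as log2(intensity + 1) minus the mean of the gene over the arrays (colour, red higher and blue lower). Most rows below Npm1 are blue in empty vector 2 and red in empty vector 3, while the row of Myc is red in empty vector 1 and 2.

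The 95% intervals show what 3 arrays per group could resolve. Standard errors of the 31 differences ran from 0.05 to 0.16 on the log2 scale, with a median of 0.09. For 25 members the whole interval lay between -0.5 and 0.5, and for 5 it excluded 0 before adjustment.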

How the data were processed

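Affymetrix arrays of total RNA were analysed, 3 per group, grouped by the transduction named in the sample titles. The deposited values are RMA-normalized intensities per probe set, per the submitters' processing notes. For RMA no version or parameters are given in the sources used here. Their range, 11.1 to 23523, shows a linear scale. RMA equalises arrays, which reduces any shift common to most genes.

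All tests were run on log2(intensity + 1), which sets the pseudocount at 1. Of 35421 probe sets, 21789 carry 1 symbol, 1621 several and 12011 none. The platform annotation was updated through gene numbers of RefSeq (GRCm38.p6). The brightest probe set stood for each of 19936 genes, with no filter on level. The comparison used lmFit and eBayes of limma (version 3.58.1, R 4.3.3), with group as the only term, 2-sided, Benjamini-Hochberg adjustment over all genes and a threshold of 0.05. The arrays carry no read depth, and their number limits the precision. The steps were tested on simulated data. The pathway lists, markers and members were chosen with earlier results of these data known. All members are named, with Ikzf1 and, per list, up to 3 genes past the threshold or else the 2 with the smallest p. Of the members, Wdr12, Fbl and Odc1 had 2 probe sets. The pathway genes Rsl24d1 and Hspe1 also had 2, and only the brighter of each is reported here.

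Replicate numbers come from the titles. After the group means were taken away, arrays of the same number correlated with r = 0.24, 0.60 and 0.66 across genes, all above 0.1. They were taken as pairs in the block fit and in differences by number, while the main fit left the pairing out. Correlations between the groups for unlike numbers lay between -0.68 and 0.11, so that 0.1 alone does not set pairs apart. A fit that adds the replicate number as a block is printed where it changes a call. Alternatives were a pseudocount of 32, brighter genes, the mean of probe sets, an intensity trend in the prior, median centring, quantile normalization, cyclic loess, array weights and leaving out each array. The fit of the dimmer Odc1 probe set was added after the values were seen.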

Additional observations from a re-analysis of the deposited data

How the results depend on the processing

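Each alternative changed 1 choice, and no alternative called a member higher. Over all genes 448 passed, 1438 with the replicate block, 1481 with array weights, and 24 to 947 with an array left out. Of the members 0 were lower, but 2 with the replicate block (Myc and Npm1), 3 with array weights (Myc, Npm1 and Odc1), 1 among brighter genes, with the intensity trend and after cyclic loess (Npm1 in each), 1 with the mean of probe sets (Odc1), and 0 to 2 with an array left out. The cause was not tested. Other pathway genes counted 0 lower and 0 higher. They numbered 10 lower and 1 higher with the block, 8 and 5 with array weights, 4 and 1 with a pseudocount of 32, and 1 and 1 after quantile normalization or cyclic loess. With the intensity trend 2 were lower, among brighter genes or centred arrays 1, and with an array left out 0 to 5 lower and 0 to 1 higher. The members' median moved from -0.04 to -0.14 on centred arrays, and to between -0.12 and 0.010 with an array left out. The sign of 14 members, none over 0.18 in size, turned under some alternative. On centred arrays Max was at -0.059, Mnt -0.053, Nolc1 -0.066, Nop56 -0.018, Fbl -0.067, Polr1b -0.083, Utp20 -0.030, Wdr12 -0.046, Nop2 -0.097, Cad -0.0033 and Gart -0.043. Mycn was at 0.013 after quantile normalization, 0.034 after cyclic loess and 0.067 with array weights, where Polr1b was at -0.0088 and Nop2 at -0.034. The mean of probe sets of Fbl was -0.10. With an array left out Mycn ran from -0.044 to 0.060, Mnt from -0.018 to 0.091, Nolc1 from -0.049 to 0.11, Nop56 from -0.0015 to 0.13, Fbl from -0.040 to 0.12, Dkc1 from -0.14 to 0.050, Polr1b from -0.085 to 0.086, Utp20 from -0.13 to 0.17, Rrp12 from -0.0096 to 0.28, Nop2 from -0.032 to 0.030, Cad from -0.044 to 0.18 and Gart from -0.068 to 0.16. Of 465 member values under alternatives, 422 kept their direction and side of the threshold. With 3 arrays a group and no signal over background deposited, small differences may go unseen.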
